A study of Mus musculus with 6 samples.

Results

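This report describes 10 transcription factors of heart muscle in the hearts of Na/K-ATPase α1 mutant mice: Hand1, Hand2, Gata4, Gata6, Nkx2-5, Tbx5, Tbx20, Mef2a, Mef2c and Mef2d. They were chosen by name from the 54532 genes of the count table. The group was put together with the genotype difference of Hand2 in these data already known, so the genotype differences of the 10 genes are given as a description, with no p-value. Hand1 had too few counts to enter the fit, and the other 9 genes were among the 14866 genes tested.

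RNA from whole hearts of 3-month-old mice on a C57BL/6 background was sequenced. The 3 hearts of mice 368, 369 and 370 were of the resistant genotype, Na/K-ATPase a1r/ra2s/s. The 3 hearts of mice 379, 380 and 381 were of the sensitive genotype, Na/K-ATPase a1s/sa2s/s. Resistant hearts carry the rodent α1 isoform of the sodium pump, which binds cardiotonic steroids such as ouabain with low affinity, and sensitive hearts carry an α1 changed by amino acid substitutions to bind them with high affinity. Both genotypes have the sensitive form of α2, and neither received a treatment. The animals were male and age-matched, from a line that had been backcrossed. The paper describes its controls in general as littermates, and the labels give no litter. Whether litter differed between the genotypes is therefore not known. The substitution is present in every cell of the animal and not in heart muscle alone. In RNA from a whole heart, fewer cells of a type and less RNA per cell cannot be told apart.

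The total count per heart was between 19309312 and 20470065 reads. Values are given as counts and as counts per 1000000 reads (CPM), scaled with TMM factors. Counts per gene do not show the substitution, so the genotype was taken from the labels alone. Mitochondrially encoded genes took 23.4 to 24.4% of counts in resistant and 25.0 to 26.0% in sensitive hearts.

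The cardiac transcription factors described here act together. GATA factors, the homeodomain factor Nkx2-5, T-box factors, MADS-box Mef2 factors and the basic helix-loop-helix (bHLH) Hand factors bind neighbouring sites and one another, and they switch on the genes of the contractile apparatus and of the natriuretic peptides. Hand2 is needed for the right ventricle of the embryo and for sympathetic neurons, and it binds the CANNTG sequence as a dimer with E proteins such as Tcf3, Tcf4 and Tcf12. Hand2os1, also called Upperhand, is a long noncoding RNA read from the opposite strand next to Hand2.

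The sequence before the Hand2 start is shown because Hand2 stands furthest from the other members in the genotype comparison and shares this stretch with Hand2os1. It is the 250 bases at chr8:57320733-57320982 on the plus strand of GRCm38.p6, from RefSeq, written 5′ to 3′. Capitals mark GATA, the letters that GATA factors bind, CANNTG, those that bHLH factors bind, and AAGTG, those that Nkx2-5 binds, each on either strand.
Hand2 upstream window: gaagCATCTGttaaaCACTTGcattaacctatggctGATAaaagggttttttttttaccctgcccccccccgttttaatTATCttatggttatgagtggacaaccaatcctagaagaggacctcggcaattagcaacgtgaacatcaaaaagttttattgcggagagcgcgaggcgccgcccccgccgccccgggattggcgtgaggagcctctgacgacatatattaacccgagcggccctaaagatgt
The window holds 2 GATA matches, which start 214 and 171 bases before the Hand2 start. It holds 2 CANNTG matches, 246 and 235 bases before the start, and 1 AAGTG match, on the opposite strand at 235 bases, inside the second CANNTG match. Such matches are common in windows of this length. Of 32851 upstream windows in the RefSeq table, 53.6% hold GATA, 66.2% hold CANNTG and 40.7% hold AAGTG. A match is a run of letters and no measure of binding. All 250 bases lie in exons of Hand2os1 in GENCODE M21, and the RefSeq starts of Hand2 and Hand2os1 are 124 bases apart.

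Of the members, Hand2 differed most between the genotypes and was higher in sensitive hearts. Nkx2-5, Tbx5 and Mef2d were also higher in every sensitive heart than in any resistant heart, by smaller amounts. Tbx20 and Mef2a were lower in every sensitive heart than in any resistant heart. Gata4, Gata6 and Mef2c overlapped between the genotypes, and Hand1 was near 0 in all 6 hearts.

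Hand2 (ENSMUSG00000038193) lies at chr8:57320983-57324633 on the plus strand of GRCm38. Its counts were 598, 743 and 655 in resistant hearts and 1113, 1084 and 1369 in sensitive hearts. In normalized CPM these were 28.6, 35.5 and 32.9 against 55.3, 57.0 and 71.0. Every sensitive heart was well above every resistant heart, and the heart of mouse 381 was the highest. The means were 32.3 ± 3.51 and 61.1 ± 8.63 CPM (SD, n = 3), and the log2 fold change was 0.92 ± 0.11 (SE). Among all genes tested, 2.35% had a larger log2 fold change in either direction, and the median size over all of them was 0.14. The log2 fold change was between 0.80 and 0.99 in the 13 alternative fits, which included leaving out each heart.

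Hand1 (ENSMUSG00000037335, chr11:57828705-57832818, minus strand), the other Hand gene, marks the left ventricle of the embryo. It had 0 counts in each resistant heart and 0, 4 and 4 counts in sensitive hearts. The highest value was 0.210 CPM, while 3 counts, the limit that a count of 0 allows, correspond to 0.143 to 0.158 CPM. Hand1 was thus at or close to the detection limit in all hearts, and no fold change is given. That limit covers counting error only.

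Nkx2-5 (ENSMUSG00000015579, chr17:26838664-26841565, minus strand) encodes the homeodomain factor that is among the earliest marks of the heart lineage. Its normalized values were 42.6, 44.4 and 41.4 CPM in resistant hearts and 54.3, 56.8 and 54.6 CPM in sensitive hearts. The hearts of each genotype lay close together and the genotypes did not overlap. The means were 42.8 ± 1.5 and 55.2 ± 1.36 CPM (SD, n = 3), which gave 0.37 ± 0.07 (SE) as the log2 fold change. The log2 fold change stayed between 0.35 and 0.40 in all alternative fits.

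The GATA zinc-finger factors Gata4 and Gata6 share targets and partly replace each other in heart muscle. Gata4 (ENSMUSG00000021944, chr14:63198922-63271692, minus strand) was at 117, 108 and 126 CPM in resistant and 112, 98.3 and 99.4 CPM in sensitive hearts. The heart of mouse 379 fell within the resistant range. The log2 fold change of Gata4 was -0.18 ± 0.08 (SE), and -0.12 without the heart of mouse 370. Gata6 (ENSMUSG00000005836, chr18:11052508-11085635, plus strand) was at 44.1, 49.6 and 56.1 CPM in resistant and 55.9, 58.9 and 62.5 CPM in sensitive hearts. The highest resistant heart, mouse 370, was just above the lowest sensitive one. The log2 fold change of Gata6 was 0.24 ± 0.09 (SE), with 0.16 to 0.34 when single hearts were left out. Counts of Gata6 per count of Gata4 were 0.377, 0.461 and 0.446 in resistant and 0.497, 0.600 and 0.629 in sensitive hearts. This within-heart ratio, which does not depend on library scaling, did not overlap between the genotypes although neither gene was separated alone. It joins genes whose log2 fold changes had opposite signs. The share of separated ratios over other gene pairs was not computed. Nothing is therefore read from the separation of this ratio or of the ratios of members given below.

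The T-box factors Tbx5 and Tbx20 had log2 fold changes of opposite sign. Tbx5 (ENSMUSG00000018263, chr5:119832668-119885219, plus strand), an activator in the atria, left ventricle and conduction system, was at 22.9, 19.3 and 24.7 CPM in resistant and 25.7, 32.8 and 27.7 CPM in sensitive hearts. The genotypes did not overlap, though the sensitive heart of mouse 379 was close to the resistant heart of mouse 370. The log2 fold change of Tbx5 was 0.37 ± 0.12 (SE), with 0.26 to 0.45 when single hearts were left out. Tbx20 (ENSMUSG00000031965, chr9:24718138-24774303, minus strand), which activates and represses genes in adult heart muscle, was at 121, 120 and 152 CPM in resistant and 110, 114 and 118 CPM in sensitive hearts. All sensitive hearts lay just below the lowest resistant heart, and the heart of mouse 370 stood above the other resistant hearts. The log2 fold change of Tbx20 was -0.20 ± 0.09 (SE), and -0.0747 without the heart of mouse 370. Counts of Tbx5 per count of Tbx20 were 0.189, 0.161 and 0.163 in resistant and 0.233, 0.288 and 0.235 in sensitive hearts, without overlap.

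Mef2 factors are MADS-box proteins whose activity is held back by class IIa histone deacetylases and raised by calcium-dependent kinases. Mef2a (ENSMUSG00000030557, chr7:67231163-67372858, minus strand), the most highly counted of the members, was at 233, 235 and 258 CPM in resistant and 210, 218 and 222 CPM in sensitive hearts. Every sensitive heart was below every resistant heart, with a log2 fold change of -0.16 ± 0.07 (SE), and -0.10 without the heart of mouse 370. Mef2c (ENSMUSG00000005583, chr13:83504034-83667080, plus strand), needed for the looping of the embryonic heart, was at 94.7, 84.0 and 92.5 CPM in resistant and 85.5, 85.9 and 82.4 CPM in sensitive hearts. The genotypes overlapped, and the log2 fold change was -0.10 ± 0.07 (SE), and -0.0584 without the heart of mouse 368. Mef2d (ENSMUSG00000001419, chr3:88142372-88172086, plus strand) was at 174, 165 and 154 CPM in resistant and 198, 181 and 176 CPM in sensitive hearts. Every sensitive heart was above every resistant heart, with a log2 fold change of 0.17 ± 0.07 (SE), and 0.12 without the heart of mouse 379. Counts of Mef2d per count of Mef2a were 0.749, 0.702 and 0.596 in resistant and 0.941, 0.831 and 0.795 in sensitive hearts, without overlap. The ratio of Mef2a to Mef2c overlapped between the genotypes.

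**Figure D1:**
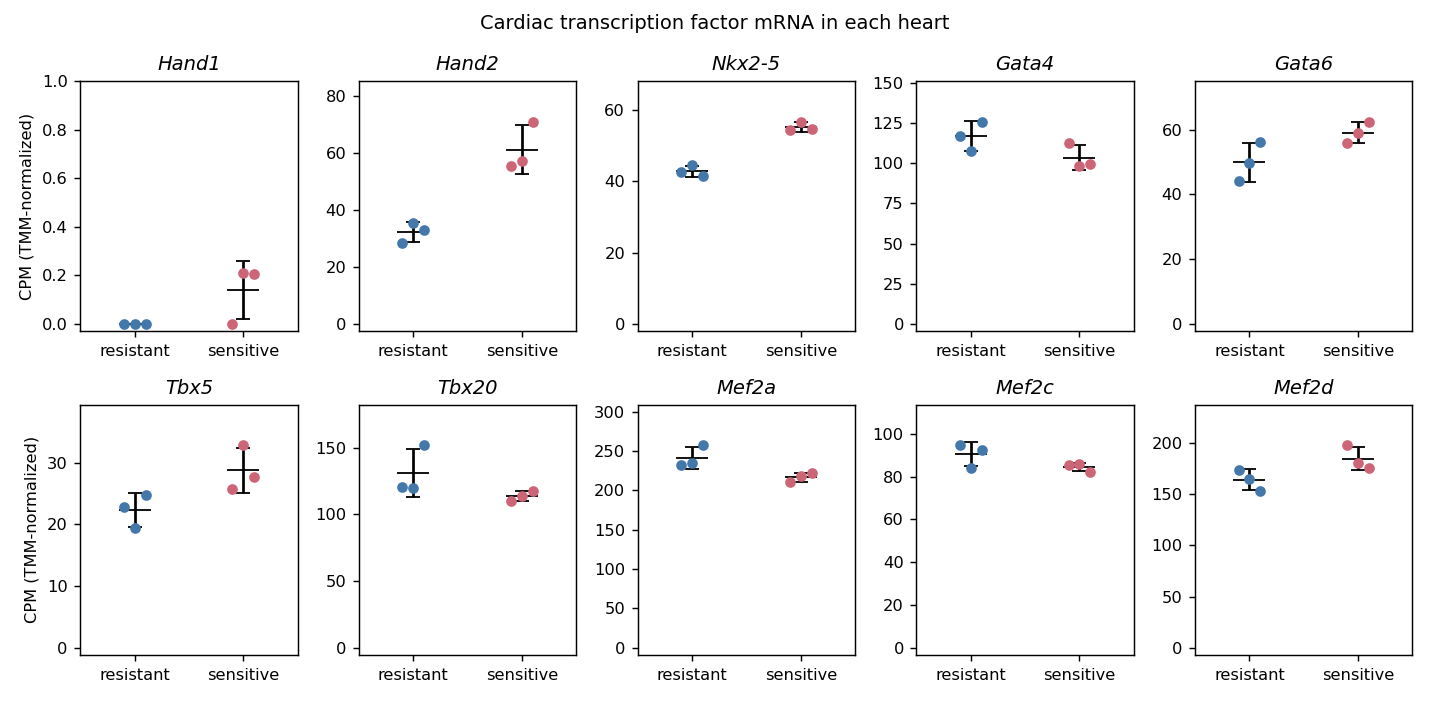
Normalized CPM (linear axis starting at 0) of the 10 members in each of the 6 hearts, 1 panel a gene with its own axis, with points for single hearts and bars for the mean and SD of 3 hearts. Hand2 has the widest gap between resistant hearts (up to 35.5 CPM) and sensitive hearts (from 55.3 CPM), while Gata4, Gata6 and Mef2c overlap.

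Past an adjusted p of 0.05 in edgeR's quasi-likelihood test were 2 of the 9 tested members, Hand2 and Nkx2-5, beside 1.44% of all genes tested. Without overlap between the genotypes were 4 members on the higher side and 2 on the lower side, beside 20.0% of all genes in either direction. By direction the backgrounds were 0.78% for genes called higher, 10% for genes higher without overlap and 9.98% for genes lower without overlap. DESeq2 also called Hand2 and Nkx2-5, beside 3.89% of the genes it tested. The members were chosen on this contrast, so nothing is read from these counts. Nkx2-5 was past the threshold in 7 of the 13 alternative fits and missed it in all 6 leave-one-out fits. Tbx5 was past it only in the fit without a filter on low counts. No member changed sign in any of these fits.

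**Figure D2:**
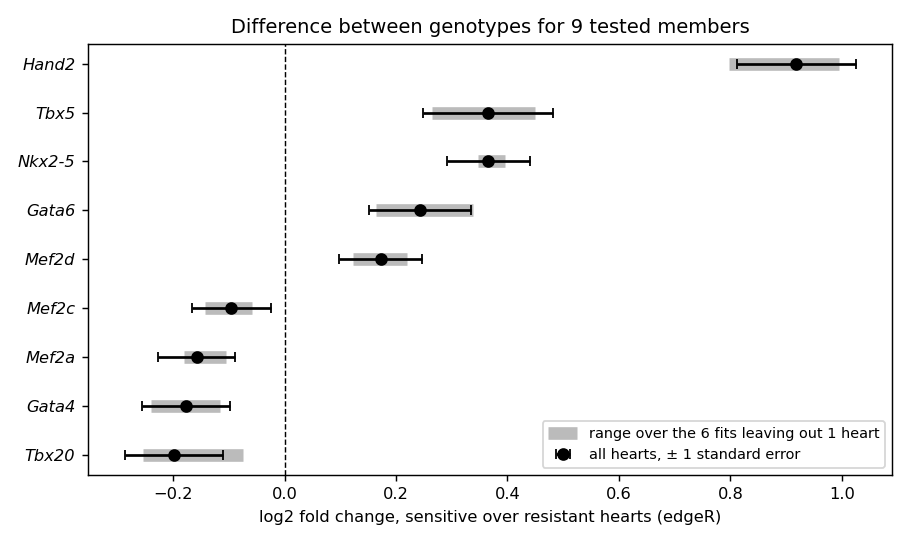
Log2 fold change (sensitive over resistant) of the 9 tested members from the edgeR fit, with bars of 1 standard error and grey bands for the range over the 6 fits without a heart. The values run from 0.92 for Hand2 to -0.20 for Tbx20, with 5 members above and 4 below 0.

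The spread between separate mice can be set beside that of counting reads. For Hand2, counting alone gives a coefficient of variation of 3.88% in resistant and 2.90% in sensitive hearts, where 10.9% and 14.1% were observed. For Nkx2-5 it gives 3.37% and 3.05%, where 3.50% and 2.47% were observed.

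Levels of the members were compared with one another as CPM per kilobase of gene length. The order depends on this division. Without it, 22 of 36 pairs of members kept their order, and Mef2a had the highest CPM. Over the 6 hearts the highest was Nkx2-5 at 32.1 ± 4.52 CPM per kb (SD, n = 6). Mef2d followed at 29.2 ± 2.51, Gata4 at 28.2 ± 2.72, Hand2 at 19.9 ± 7.16 and Mef2a at 15.6 ± 1.13 CPM per kb. Below these were Tbx20 at 10.2 ± 1.24, Gata6 at 9.76 ± 1.19, Mef2c at 5.57 ± 0.315 and Tbx5 at 5.46 ± 0.976 CPM per kb. The order depended on the genotype, since in resistant hearts Gata4, at a mean of 29.9 CPM per kb, was above Nkx2-5 at 28.1, and in sensitive hearts Nkx2-5, at 36.2, was above Gata4 at 26.5. All 9 were in the upper part of the table, with Nkx2-5 above 93.3% and Tbx5 above 64.6% of the genes tested.

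Neighbours in this order were compared within hearts over both genotypes together, so that the spread of a pair includes any difference between the genotypes. By the exact two-sided sign-flip permutation test over hearts, whose smallest p with 6 hearts is 0.03125, Mef2a was above Tbx20 and Gata6 above Mef2c in 6 of 6 hearts (p = 0.03125, adjusted p = 0.125 over the 8 neighbouring pairs). The other pairs held their order in 3 to 5 of 6 hearts (exact p from 0.0625 to 0.781), and no pair had an adjusted p under 0.05. With 6 hearts, that would have needed most of the 8 pairs to reach the smallest p. The absence of such a pair therefore says little about the order, which was itself taken from the same hearts. Of the 8 pairs, 4 were in one order in all resistant hearts and in the other in all sensitive hearts. Neighbours in the order lie close in level, and the members were chosen on this contrast, so nothing is read from this count. Mef2a was above Hand2 in each resistant heart and below it in each sensitive heart. Gata4 was above Mef2d in all resistant hearts and below it in all sensitive hearts. Tbx20 was above Gata6, and Mef2c above Tbx5, in all resistant hearts and below in all sensitive hearts. Gata4 was above Hand2 by 1.13 on the log2 scale in resistant hearts (3 of 3) and by 0.0332 in sensitive hearts (2 of 3).

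**Figure D3:**
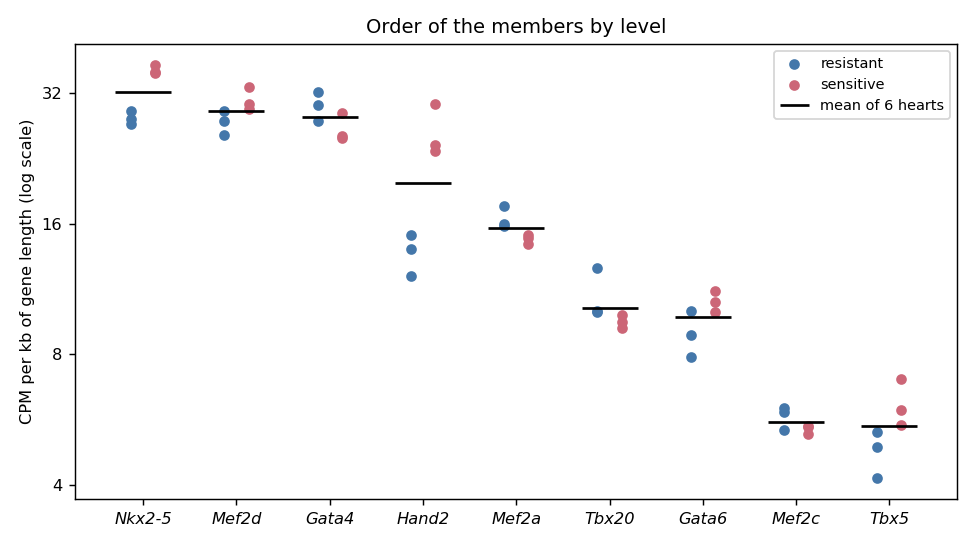
Level of the 9 tested members in CPM per kilobase of gene length (log axis), with 1 point a heart coloured by genotype and a line at the mean of 6 hearts. The order runs from Nkx2-5 (mean 32.1) to Tbx5 (mean 5.46), and Hand2 spans the widest range, from 12.1 to 30.2 CPM per kb.

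Hand2os1, the noncoding RNA beside Hand2, was also higher in sensitive hearts. The table lists it as AV026068, and it was matched by its identifier to GENCODE M21, at chr8:57281117-57324233 on the minus strand. Its counts were 1437, 1553 and 1408 in resistant and 1840, 2057 and 2383 in sensitive hearts. The genotypes did not overlap, and as for Hand2 the heart of mouse 381 was the highest. Its mean rose from 71.2 ± 2.82 CPM to 108 ± 16.1 CPM (SD, n = 3). The log2 fold change was 0.60 ± 0.09 (SE; edgeR's quasi-likelihood test, adjusted p = 0.0057), past the threshold in all 13 alternative fits. Counts of Hand2os1 per count of Hand2 were 2.40, 2.09 and 2.15 in resistant and 1.65, 1.90 and 1.74 in sensitive hearts, lower in each sensitive heart. The exons of the pair share 461 bases, which are 19.6% of Hand2's exonic bases and 3.59% of those of Hand2os1. Whether strand was used in counting is not given in the sources used here, so reads in the shared bases cannot be told apart.

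No other tested gene near Hand2 passed the threshold. Within 500 kb of Hand2 the table lists 25 other genes, of which 8 were tested and 6 had no count in any heart. Hand2os1 was the 1 neighbour called, beside 1.44% of all genes. Sap30, a subunit of a histone deacetylase complex, had a log2 fold change of 0.54 ± 0.17 (SE; edgeR's quasi-likelihood test, adjusted p = 0.143), without overlap between genotypes. Hmgb2, a chromatin protein, was at -0.38 (adjusted p = 0.38), with -0.15 without the heart of mouse 368 and -0.22 without that of mouse 380, and Galnt7, a glycosyltransferase, at 0.00. Of the noncoding and uncharacterised neighbours, 2500002B13Rik was at 0.30 (edgeR, adjusted p = 0.498), also without overlap between genotypes. Over all genes tested, 20.0% did not overlap, in either direction. The others were Gm34030 at 0.20 (0.0564 without the heart of mouse 379 and 0.36 without that of mouse 380), 5033428I22Rik at -0.09 and 4930412F12Rik at -0.21. Without a filter on low counts Sap30 was called too.

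**Figure D4:**
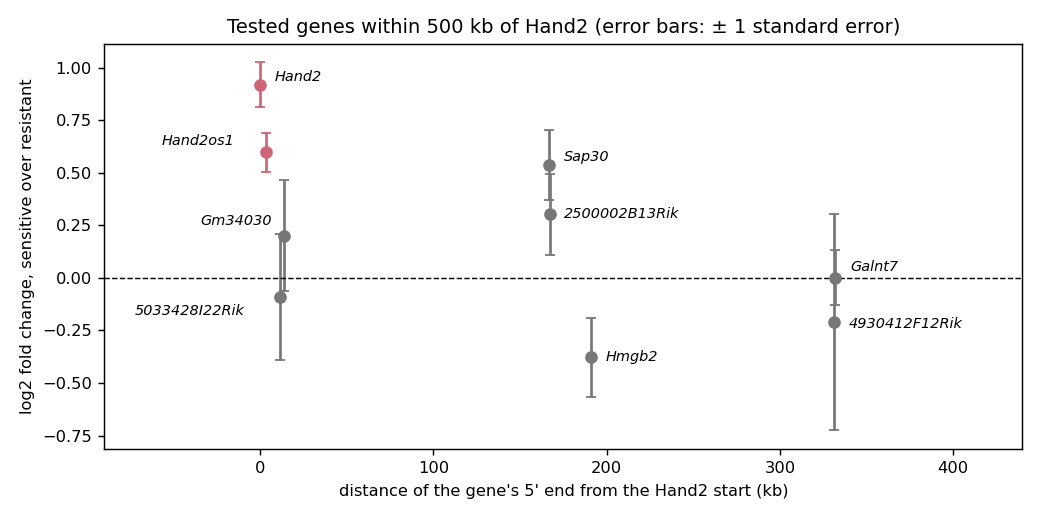
Log2 fold change (sensitive over resistant, edgeR, bars of 1 standard error) of Hand2 and the 8 tested genes within 500 kb, against the distance of each gene's 5′ end from the Hand2 start in kb. Hand2 (0.92) and Hand2os1 (0.60), at the start, passed the threshold, and the genes farther away did not.

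Other members also have genes on top of them. 1010001N08Rik overlaps Gata6 by 60 bases on the opposite strand, with 199, 175 and 189 counts in resistant and 184, 186 and 248 in sensitive hearts. Lysmd4 lies in part across Mef2a on the opposite strand, with 323 to 393 counts a heart, against 4140 to 5127 counts of Mef2a. Neither passed the threshold (edgeR, adjusted p = 0.561 and 0.887). Gm44667, on the same strand as Mef2a, had 28 to 82 counts (edgeR, adjusted p = 0.877). Gm44668, also on that strand, had 2 to 16 counts and was not tested. 1700113A16Rik, opposite Mef2d, had 4 to 6 counts in resistant and 6 to 10 in sensitive hearts and was not tested.

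The genes whose profile over the 6 hearts was most like that of Hand2 were Tent5a, Etfbkmt, Adh1, Car4 and Rbp7. Likeness was the root mean square difference of log2 CPM, each profile centred on its own mean, over the 12107 genes whose mean log2 CPM reached 1, and it is a description with no test. Tent5a, a noncanonical poly(A) polymerase, was closest at 0.0862. Its counts were 357, 427 and 395 in resistant and 707, 583 and 740 in sensitive hearts. Etfbkmt, a methyltransferase of an electron transfer protein, followed at 0.123. Adh1, an alcohol dehydrogenase, was at 0.147, Car4, a membrane-bound carbonic anhydrase, at 0.161 and Rbp7, a retinol-binding protein, at 0.162. Hand2os1 was 8th in this order. Of the members, the nearest was Nkx2-5 at rank 200 and the farthest Gata4 at rank 9423.

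The table assigns each transcription factor to a family, and few relatives of the members passed the threshold. Among the 54 tested bHLH genes, those called apart from the member Hand2 were Srebf1 and Mycn. Srebf1, a regulator of lipid synthesis, rose from 24.5 to 36.8 CPM (log2 fold change 0.59; edgeR's quasi-likelihood test, adjusted p = 0.0055). Mycn, a growth regulator of the fetal heart, fell from 4.42 to 1.75 CPM (log2 fold change -1.34; adjusted p = 0.046). Mycn missed the threshold without the heart of mouse 368, 369, 379 or 380, with log2 fold changes of -1.44 to -1.03 in those fits. Among 44 tested homeobox genes none was called apart from the member Nkx2-5. None was called among 10 GATA-type zinc finger, 9 T-box and 5 SRF-type genes, the last of which holds the Mef2 genes. Of all 949 tested genes with a family, 12 were called (1.26%, the members included), and Hand2 was 19th of them by the size of its log2 fold change.

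The genes around the members were grouped in 6 lists. Of 13 dimer partners and inhibitors of bHLH factors, 10 were lower and 3 higher in sensitive hearts, with a median log2 fold change of -0.13 beside -0.00781 over all genes, and none was called (3 at an unadjusted p under 0.05, beside 14.5% of all genes tested). Their summed level was 360 to 400 CPM in resistant and 303 to 353 CPM in sensitive hearts. DESeq2 called 1 of them, Hes1. The most abundant, the E proteins Tcf4 and Tcf12, had log2 fold changes of -0.13 and -0.10 (edgeR, adjusted p = 0.487 and 0.67).

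None of the 14 tested cofactors was called by edgeR or by DESeq2, and none had an unadjusted p under 0.05. Ankrd1, a stress-responsive repressor, was at -0.12 and the methyltransferase Smyd1 at 0.02 in log2 fold change. Of 22 other heart transcription factors tested, none was called by edgeR, 3 had an unadjusted p under 0.05, and DESeq2 called Prox1. Prox1, which maintains sarcomere genes, was at -0.41 ± 0.11 (SE; edgeR, adjusted p = 0.100). Of 20 regulators of Mef2 activity, 12 were higher and 8 lower, none was called by edgeR (4 at an unadjusted p under 0.05), and DESeq2 called Map2k6. Camk2d, a calcium-dependent kinase, was at -0.13 and Ppp3cb, a calcineurin subunit, at 0.08. Of 18 tested signals upstream of the members, none was called by edgeR (3 at an unadjusted p under 0.05) or by DESeq2. The bone morphogenetic protein receptors Bmpr1a and Bmpr2 were at 0.01 and 0.15.

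Among 31 heart muscle genes that are targets of these factors, 17 were higher and 14 lower, and 2 passed the threshold, both of them lower, beside 0.659% of all genes. Nppb, the natriuretic peptide B gene, fell from 122 ± 13.4 CPM to 91.8 ± 6.87 CPM (SD, n = 3), with a log2 fold change of -0.41 ± 0.09 (SE; edgeR's quasi-likelihood test, adjusted p = 0.0303). These values are from whole hearts. In left ventricles, the paper found no significant change of Nppb (BNP) mRNA by RT-qPCR. Casq2, the calcium buffer of the sarcoplasmic reticulum, fell from 828 ± 31.9 CPM to 617 ± 6.06 CPM (SD, n = 3), with a log2 fold change of -0.42 ± 0.07 (SE; adjusted p = 0.0057). Both were lower in every sensitive heart. Casq2 was called in all 13 alternative fits, while Nppb missed the threshold without the heart of mouse 368, 370, 379, 380 or 381, with log2 fold changes of -0.45 to -0.34 in those fits. The most abundant targets, Myh6 and Atp2a2, were at 0.04 and 0.07 in log2 fold change (edgeR, adjusted p = 0.882 and 0.735). The median of the list was 0.04, and DESeq2 called 6 of the 31, among them Nppb and Casq2, beside 3.89% of the genes it tested.

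**Figure D5:**
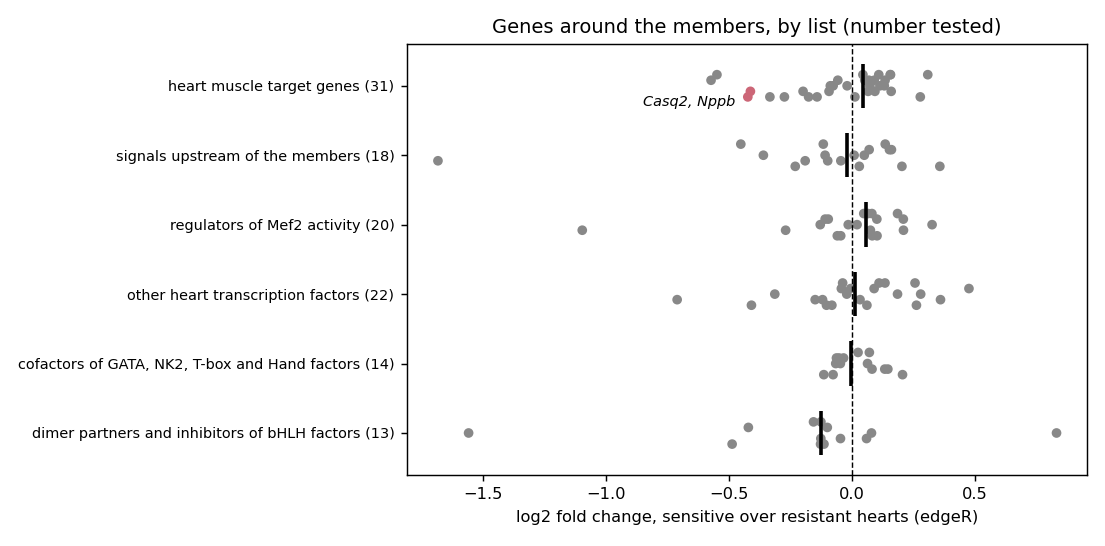
Log2 fold change (sensitive over resistant, edgeR) of each tested gene in the 6 lists around the members, 1 point a gene and a bar at each list's median. Casq2 (-0.42) and Nppb (-0.41) are the coloured points, the 2 genes of these lists past the threshold.

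The tissue label was checked with markers of cell types. Cardiomyocyte markers summed to 54729 to 68231 CPM in resistant and 60723 to 66257 CPM in sensitive hearts, so both sets were heart muscle. No gene of the 11 marker lists was called by edgeR, and the summed levels overlapped between genotypes in all 11. At an unadjusted p under 0.05, which 14.5% of all genes tested reached, were 3 of 7 atrial, 4 of 12 fibroblast, 2 of 8 endothelial, 4 of 8 smooth muscle and pericyte, 3 of 6 macrophage and 1 of 3 adipocyte markers, and none of the cardiomyocyte, epicardial, sympathetic neuron, Schwann cell or erythrocyte lists. DESeq2 called Myl7, Col1a1, Acta2, C1qa and Mrc1, each with a negative log2 fold change. Hand2 is also made by fibroblasts and sympathetic neurons. Fibroblast markers summed to 2286 to 2659 CPM in resistant and 2304 to 2651 CPM in sensitive hearts, with 9 of 12 lower. Sympathetic neuron markers summed to 8.98 to 13.2 CPM in resistant hearts, and to at least 8.66 and less than 13.2 CPM in sensitive hearts, with 2 of 10 at 0 in every heart and 7 under 1 CPM. All 7 atrial markers were lower in sensitive hearts (median log2 fold change -0.46), with sums of 193 to 303 and 173 to 208 CPM. The most abundant endothelial marker, Kdr, was at 284 ± 28.4 and 201 ± 45.0 CPM (SD, n = 3), without overlap. Its log2 fold change was -0.50 ± 0.13 (SE; edgeR, adjusted p = 0.0694), and -0.33 without the heart of mouse 381. It was called without a filter on low counts and without the heart of mouse 379. Among the most abundant markers of other lists were Nppa at -0.18, Gsn at 0.17, Wt1 at -0.41, Rgs5 at -0.0012, Stmn2 at -0.0051, Csf1r at -0.31, Cidec at 0.49 and Hbb-bs at 0.69 in log2 fold change (edgeR, adjusted p from 0.351 to 0.996). Of these, Csf1r and Hbb-bs were called in the fit without a filter on low counts. Endothelial markers summed to 1010 to 1189 and 897 to 1067 CPM, and macrophage markers, 6 of 6 lower, to 191 to 294 and 148 to 195 CPM. Smooth muscle and pericyte markers, 8 of 8 lower, summed to 1396 to 1460 and 1239 to 1397 CPM. Epicardial markers were at 5.92 to 10.7 and 5.19 to 8.89 CPM, Schwann cell markers at 8.04 to 13.1 and 9.91 to 11.4 CPM, and adipocyte markers at no more than 4.27 CPM in any heart. Erythrocyte markers were the most variable, at 536 to 1272 and 401 to 3187 CPM. The part of these cell types in the members' values was not tested.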

How the data were processed

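RNA-seq of 6 whole hearts was used, 3 of each genotype, each from a separate mouse, grouped by the genotype in the labels. The authors deposited unnormalized read counts per gene, made by a sequencing company. Per the labels, the submitters' processing notes name fastp, STAR, featureCounts and mm10. Their versions, settings and use of strand are not given in the sources used here. The deposited gene lengths, another measurement in the count table, were used for levels per kilobase. The authors also deposited a DESeq2 table of means, log2 fold changes, standard errors, Wald statistics and p-values, which was not used. No per-sample column was left unused.

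Counts were analysed in R 4.3.3 with edgeR 4.0.16 (TMM, filterByExpr with a minimum count of 10 and a minimum total of 15, quasi-likelihood test, Benjamini-Hochberg adjustment over the 14866 genes tested, threshold 0.05). CPM were TMM-normalized, and log2 CPM had a prior count of 2. Each SE was the log2 fold change divided by the square root of its F statistic, without sign. The biological coefficient of variation was 11.1%. The fits were tested on simulated data. Alternatives were DESeq2 1.42.0, upper-quartile or RLE factors, a robust prior, a minimum of 10 counts in each heart, all genes with a count, no mitochondrial or globin genes, and leaving out each heart. With 3 hearts per genotype, replicates of a genotype differed beyond sampling noise in every pair.

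The genes named are the members, the tested genes within 500 kb of Hand2, the 5 genes most like it, called genes of each list with the 2 most abundant (the most abundant of a marker list), and called genes of the members' families. Some genes this rule names are not reported here. Hes1, Map2k6, the markers called by DESeq2 and the genes overlapping other members were named after their values were seen. Members and lists were chosen with earlier results of these data known. Gene positions are those of the count table, and 54495 of its 54532 identifiers are in GENCODE M21.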

Additional observations from a re-analysis of the deposited data

How the results depend on the processing

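No paired analysis was possible because the labels give the genotypes no shared replicate numbers. Against 214 genes called, DESeq2 called 409 and the fit without a filter 618, while the fits without a heart called 80 to 158, of which 76 to 121 were among the 214. The 2 members called became 1 in every fit without a heart (range 1 to 1). Of the genes in the 6 lists, 2 were called, against 9 with DESeq2, 14 without a filter, 4 with the robust prior and 1 to 4 without a heart. Neighbours of Hand2 called went from 1 to 2 without a filter. Of 36 pairs in the order of levels, 22 kept their order without division by gene length. Signs turned for 10 genes, none past the threshold with all hearts. Galnt7 was at -0.0131 with upper-quartile factors, at -0.0034 with at least 10 counts in every heart, and from -0.0923 to 0.0680 without a heart. Rgs5 was at 0.0031 with DESeq2, 0.0021 with RLE factors, 0.0028 without a filter, and from -0.0377 to 0.0545 without a heart. Bmpr1a was at -0.0044 with upper-quartile factors and from -0.0508 to 0.0719 without a heart. Without a heart, 5033428I22Rik ran from -0.39 to 0.27, 4930412F12Rik from -0.53 to 0.0704, Myh6 from -0.0423 to 0.18, Stmn2 from -0.15 to 0.17, Cidec from -0.0040 to 0.75, Hbb-bs from -0.59 to 1.14 and Smyd1 from -0.0289 to 0.0696. DESeq2 gave no adjusted p for Mycn. The cause was not tested. The fits without a heart hold fewer samples. Scaling moved the median of all genes by at most 0.013.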
